A study of Mus musculus with 12 samples.

Results

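The GABA gene set described here held 27 genes for the synthesis, transport and reception of the inhibitory transmitter gamma-aminobutyric acid (GABA), out of 21149 gene names on the array. The members were chosen by symbol, and every probe whose gene name in the cerebellum annotation was a member symbol was taken on all 12 arrays, which gave 55 probes on 64 spots. The choice set no limit on a measured value, but it was made with earlier results of these data known. The set does not hold every gene of these families.

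The study compared adult mice lacking the homeobox of Engrailed-2, a transcription factor that patterns the midbrain and hindbrain, with their wild-type littermates. The groups labelled En2KO and En2WT are called En2-/- and WT below. All mice came from heterozygous matings on a mixed 129Sv x C57BL/6 and outbred background crossed at least 5 times to C57BL/6, were of both sexes and were 3 to 5 months old. Total RNA of the whole cerebellum and of the whole hippocampus was taken from 3 mice of each genotype and hybridised to 1-colour Agilent arrays, 1 per sample, so that each of the 4 groups (cerebellum WT, cerebellum En2-/-, hippocampus WT and hippocampus En2-/-) had 3 arrays.

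GABA is made from glutamate by the glutamate decarboxylases Gad1 and Gad2, loaded into vesicles by Slc32a1, removed from the extracellular space by transporters such as Slc6a11 and Slc6a13, and broken down by the transaminase Abat. It acts on GABA-A receptors, which are chloride channels of 5 subunits, and on GABA-B receptors, which are G protein-coupled pairs of Gabbr1 and Gabbr2. The subunits of a GABA-A receptor differ between neuron types: alpha-6 is known from granule neurons of the cerebellum, alpha-5 from pyramidal neurons of the hippocampus, and alpha-4 with delta from receptors outside the synapse in the dentate gyrus and thalamus.

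Values are log2 intensities normalised to the same quantiles on all 12 arrays. They compare 1 probe between samples and do not rank genes, since probes differ in brightness. Each gene is represented by its brightest probe, by the mean of the 12 arrays. For genotype, testing required that all 3 arrays of 1 or more groups of the tissue had this probe well above background. For region and interaction, 1 or more groups of either tissue and genotype had to meet this. A gene was called at a limma adjusted p under 0.05 over all genes tested. In whole tissue, fewer cells of a type and less RNA per cell cannot be told apart.

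The probes on which the results turn are shown by the first 30 of their 60 bases, because genes with several probes did not always give the same answer, and because some genes rest on 1 probe alone. Positions are those of the whole probe in mm9, as the array's annotation gives them. Capitals mark bases that both Slc6a13 probes share, 40 in the whole probes, so these probes are not independent measurements.
Gabra4 A_51_P393124 (chr5:71962623-71962682, minus strand): ttggagcaagagaaatagagctaggagaga
Gabra6 A_51_P198335 (chr11:42120087-42120146, minus strand): tgcatatgtacatagctttagttatgctgc
Gabra5 A_52_P143037 (chr7:64663486-64663545, minus strand): ctgtggacatttaagtccagtacgaattgc
Gabra5 A_51_P151316 (chr7:64744503-64744562, minus strand): cgaatcacgcaggtgcgaacagacatctat
Gabra2 A_51_P417507 (chr5:71352793-71352852, minus strand): acaggcagaaaacatcccgtgccaaaagag
Gabra2 A_52_P446146 (chr5:71350832-71350891, minus strand): aaccttcctcacgaaaatcaaaagtaatcc
Gabra2 A_52_P336171 (chr5:71350022-71350081, minus strand): taatgacattatgataagttagacgtccca
Gabrb2 A_52_P91563 (chr11:42444018-42444077, plus strand): cagttcctaagaacattgcacagtttgact
Gabrb2 A_52_P460687 (chr11:42442194-42442253, plus strand): tgcagatgaatctttcccctcatgattaac
Gabrb2 A_51_P227679 (chr11:42445782-42445841, plus strand): cttgtagcctttctgaacacacacatcatg
Slc6a13 A_52_P221824 (chr6:121287577-121287636, plus strand): tgatgcccctattccagggtGGTCCACACA
Slc6a13 A_51_P438083 (chr6:121287597-121287656, plus strand): GGTCCACACATTGTGACGTGCCCGAATCAA
The Gabra4, Gabra6, Gabrb1, Gabrd and Slc32a1 results each rest on 1 probe. Gabra5 was read by 2 probes whose starts lie 81017 bases apart, and Gabra2 by 3 probes whose starts lie between 810 and 2771 bases apart.

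Of the arrays, 62.3% to 73.1% of spots were well above background and no spot was saturated. The 3 slides each carried 1 array of each group, always in the same position, so position and group cannot be told apart. Of the markers of the labelled tissues, 8 of 8 Purkinje cell genes and 6 of 8 granule neuron genes were called higher in WT cerebellum, and 7 of 8 hippocampal neuron genes were called higher in WT hippocampus. The granule neuron gene Neurod2 was called the other way (log2 difference, cerebellum minus hippocampus, -1.14, limma adjusted p = 0.00479). The single En2 probe lies, by the study's account, in the untranslated 3' end, outside the deleted part, so it does not check the genotype labels. It read 14.06, 13.80 and 14.61 in WT cerebellum and 14.08, 14.81 and 14.50 in En2-/- cerebellum. In the hippocampus it read 7.43, 7.99 and 7.64 in WT and 8.14, 7.04 and 7.21 in En2-/- mice.

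The first comparison asked how the genes were used in the 2 regions of WT brain. The largest subunit differences were of the alpha subunits Gabra6 and Gabra5. Gabra6 was measured in the cerebellum and not above background in WT hippocampus, while Gabra5 was higher in the hippocampus. Gabrb1, Gabra4 and Gabra2 were also higher in the hippocampus. The delta subunit, the vesicle loader Slc32a1 and the uptake transporter Slc6a11 were higher in the cerebellum. Of the 23 members tested, 11 were called (47.8%, against 32.0% of the 15819 genes tested), 7 higher in the cerebellum (30.4%, against 17.3%) and 4 higher in the hippocampus (17.4%, against 14.7%). With a difference of at least 2-fold asked for as well, 8 were called (34.8%, against 19.7%), 4 higher in the cerebellum (17.4%, against 10.0%) and 4 higher in the hippocampus (17.4%, against 9.68%). The median difference, cerebellum minus hippocampus, was 0.25 over the members tested and 0.07 over all genes tested.

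Gabra5, the alpha-5 subunit, read 9.20, 9.36 and 8.43 in WT cerebellum and 13.22, 13.04 and 13.01 in WT hippocampus. Every hippocampus array lay above every cerebellum array. The log2 difference was -4.10 ± 0.24 (SE), or 17.1-fold higher in the hippocampus (limma adjusted p = 1.43e-07), and its second probe gave a log2 difference of -3.21 in the same direction.

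Gabra6, the alpha-6 subunit, read 14.71, 14.68 and 14.91 in WT cerebellum. In WT hippocampus the probe was well above background on 0 of 3 arrays, where its values of 1.97, 2.0 and 3.77 have no order. Against the dimmest signal well above background on those arrays, Gabra6 was at least 1291-fold higher in the cerebellum (measured means 14.77 and 2.58, limma adjusted p = 2.90e-07). En2-/- cerebellum lay in the same range, at 14.71, 14.99 and 14.71, and 1 of 3 En2-/- hippocampus arrays was above background, at 5.88.

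Gabra2, the alpha-2 subunit, read 10.72, 10.52 and 11.54 in WT cerebellum and 11.80, 12.01 and 12.55 in WT hippocampus. These groups did not overlap, and the gene was 2.28-fold higher in the hippocampus (log2 difference -1.19 ± 0.30, SE, limma adjusted p = 0.00978). Its other probes, A_52_P446146 and A_52_P336171, differed in the same direction, by -1.65 and -2.43.

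Gabra4, the alpha-4 subunit, read 11.06, 11.11 and 12.04 in WT cerebellum and 12.82, 12.49 and 12.97 in WT hippocampus. The groups did not overlap, and the gene was 2.56-fold higher in the hippocampus (log2 difference -1.35 ± 0.38, SE, limma adjusted p = 0.0171). The call was lost on leaving out cerebellum WT array 1 (adjusted p = 0.0661) or 2 (0.0640), or hippocampus WT array 1 (0.0527) or 3 (0.0520). Gabra3, the alpha-3 subunit, ranged from 9.56 to 10.31 in WT cerebellum and from 9.17 to 10.07 in WT hippocampus, which overlap.

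**Figure D1:**
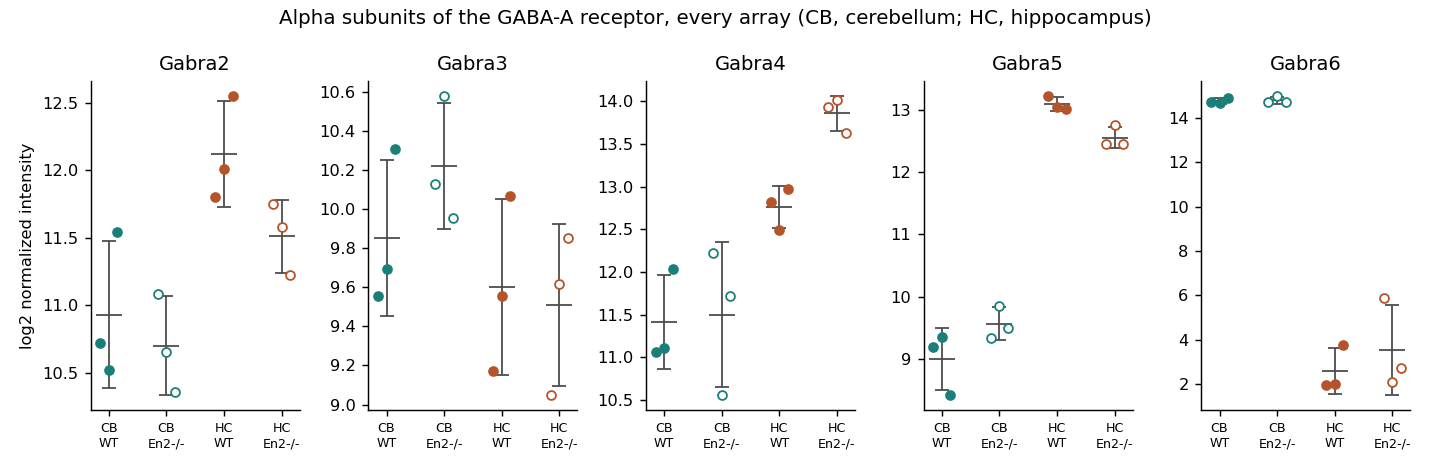
Log2 normalised intensity (y axis) of the alpha subunit genes on every array (points) with group means and SD, in cerebellum and hippocampus of WT and En2-/- mice (3 arrays a group). Gabra5 lies between 8.43 and 9.86 in the cerebellum and between 12.45 and 13.22 in the hippocampus, Gabra6 is at background in WT hippocampus, and Gabra4 is highest in En2-/- hippocampus.

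Among the other subunits, Gabrd, the delta subunit of receptors outside the synapse, read 14.61, 14.38 and 14.89 in WT cerebellum and 12.67, 12.44 and 12.94 in WT hippocampus. The ranges lay apart, with a 3.84-fold higher level in the cerebellum (log2 difference 1.94 ± 0.22, SE, limma adjusted p = 2.94e-05). Gabrb1, the beta-1 subunit, read 11.60, 11.43 and 11.07 in WT cerebellum and 13.25, 12.95 and 12.77 in WT hippocampus. All hippocampus values were above all cerebellum values, by 3.08-fold (log2 difference -1.62 ± 0.19, SE, limma adjusted p = 4.88e-05). The beta-2 subunit gene Gabrb2 ranged from 13.90 to 15.22 and from 13.51 to 14.03 in the same groups, which overlap, and did not pass the test (log2 difference 0.53). Gabrg1, the gamma-1 subunit, was called 1.68-fold higher in the cerebellum (limma adjusted p = 0.0109), and the gamma-3 gene Gabrg3 (log2 difference -0.33) and the rho-1 gene Gabrr1 (0.14) did not pass. The epsilon, pi, theta and rho-2 subunit genes Gabre, Gabrp, Gabrq and Gabrr2 were tested in no comparison: in no group did all 3 arrays read them well above background, and the most was 2 of 3, for Gabrr2 in En2-/- cerebellum.

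Of the genes that make, load and remove GABA, the decarboxylases did not pass the regional test in WT mice and the vesicle loader did. Gad1 read 13.59, 14.13 and 14.33 in WT cerebellum and 14.33, 13.91 and 13.85 in WT hippocampus. These ranges overlap, with a log2 difference of -0.01 and a 95% confidence interval from -0.55 to 0.52 (limma adjusted p = 0.974). Gad2 read 12.80, 13.21 and 12.97 against 12.54, 12.63 and 12.72, a log2 difference of 0.37 ± 0.16 (SE, limma adjusted p = 0.109) between groups that did not overlap.

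Slc32a1, which fills vesicles with GABA or glycine, read 16.84, 17.07 and 17.31 in WT cerebellum and 15.56, 16.00 and 15.95 in WT hippocampus. Each cerebellum value was above each hippocampus value, and the gene was 2.36-fold higher in the cerebellum (log2 difference 1.24 ± 0.18, SE, limma adjusted p = 2.91e-04). Slc6a11, the uptake transporter GAT3 of astrocytes, read 12.41, 12.68 and 11.31 in WT cerebellum and 10.39, 9.58 and 10.11 in WT hippocampus. The groups did not overlap, and it was 4.30-fold higher in the cerebellum (log2 difference 2.10 ± 0.36, SE, limma adjusted p = 7.93e-04), while its other probe, tested on its own, gave 1.03 (limma adjusted p = 0.190). The transaminase gene Abat was 1.92-fold higher in the cerebellum (limma adjusted p = 0.00106). Slc6a13, the transporter GAT2, was 0.83 higher there on the log2 scale and did not pass (adjusted p = 0.160).

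Of the receptor-clustering and trafficking genes and the GABA-B receptor genes, 1 was called between the regions. Gephyrin, the scaffold of inhibitory synapses encoded by Gphn, read 12.01, 11.55 and 11.30 in WT cerebellum and 12.47, 12.48 and 11.82 in WT hippocampus. The groups overlap, and the log2 difference of -0.64 ± 0.33 (SE) did not pass (limma adjusted p = 0.165). Gabarapl2, an autophagy protein of the GABA-A receptor-associated protein family, was 1.72-fold higher in the cerebellum by its brighter probe (limma adjusted p = 0.00902), but its other probe gave a log2 difference of 0.01. Gabarap (-0.43), Gabarapl1 (-0.17), Gabbr1 (-0.05) and Gabbr2 (0.25) did not pass, and an outlier spot left Gabbr1 with 2 WT hippocampus arrays. Other probes of the GABA-B receptor genes, each tested on its own, were lower in the cerebellum: those of Gabbr1 gave -0.82 and -0.47, and those of Gabbr2 gave -0.71 (limma adjusted p = 0.0526) and -0.99 (0.0511).

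**Figure D2:**
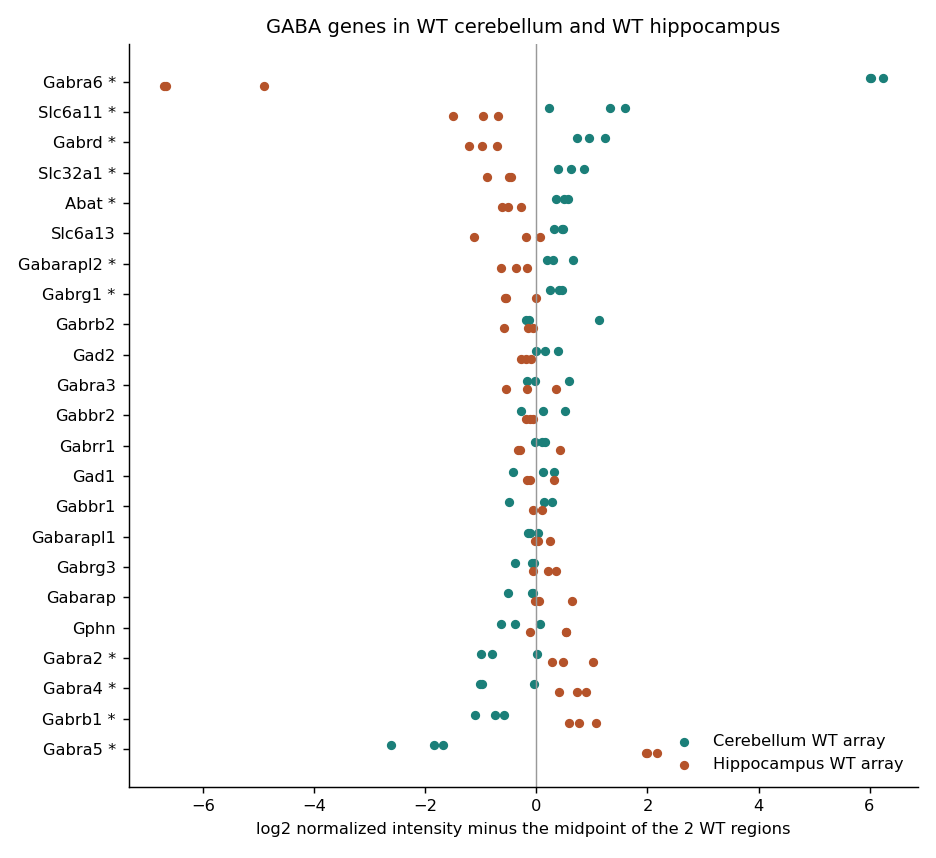
Each tested member in WT cerebellum and WT hippocampus, as the log2 intensity of each array (points, 3 a region, but 2 for Gabbr1 in the hippocampus) minus the midpoint of both regions (x axis, log2), with an asterisk on called genes. Among subunits, Gabra6, whose hippocampus points are at background, and Gabrd lie furthest to the cerebellum side, and Gabra5, at a log2 difference of -4.10, furthest to the hippocampus side.

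The regional differences in En2-/- mice were of the same sign for all 11 of these genes. The log2 difference, cerebellum minus hippocampus, was -2.98 for Gabra5, -0.82 for Gabra2, -2.36 for Gabra4, -1.37 for Gabrb1, 1.91 for Gabrd, 1.34 for Slc32a1 and 2.16 for Slc6a11. Gabra2 (limma adjusted p = 0.0648) and Gabrg1 (0.181) did not pass in En2-/- mice, while Gad2 did, at a log2 difference of 0.51 (0.0389). Whether they differ between genotypes is the interaction test given at the end.

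Interneurons, from which much GABA in the hippocampus comes, were represented by a list of 10 marker genes. Of these, 7 were called higher in WT hippocampus and 1, Pvalb, higher in WT cerebellum. The list compares these genes and not the number of interneurons, since it may not mark those of both regions alike. Its summed intensity ranged from 32120 to 52350 in WT cerebellum and from 92490 to 124600 in WT hippocampus. The Purkinje cell sum ranged from 368600 to 457200 and from 96400 to 124000. Purkinje cells also use GABA. Spink8 of the hippocampal neuron list and Dlx1 and Dlx5 of the interneuron list were not above background in WT cerebellum. Nor were Cbln3 and Fat2 of the granule neuron list in WT hippocampus. The part of these cell types in the differences of Slc32a1 and the subunit genes was not tested.

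In the cerebellum, En2-/- and WT mice were compared to ask whether the mutation went with a change in GABA genes. No member passed: limma called 0 of 23 members at an adjusted p under 0.05 (0.660% of all 15596 genes tested), 0 at an unadjusted p under 0.05 (9.30% of all genes), and the rank product, the statistic of the study's methods, called 0 at a permutation P under 0.01 (5.01% of all genes). The groups did not overlap for 1 member, Gabrg3, or 4.35% against 14.8% of all genes. Gabrg3 read 8.01, 7.98 and 7.66 in WT and 8.54, 8.36 and 8.04 in En2-/- cerebellum, a log2 difference of 0.43 (limma adjusted p = 0.612). The median difference, En2-/- minus WT, was 0.08 over the members tested and -0.03 over all genes tested.

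The synthesis and loading genes of the cerebellum showed small differences within the spread of the arrays. Gad1 read 13.87, 14.51 and 14.27 in En2-/- mice, against WT values from 13.59 to 14.33 (log2 difference 0.20 ± 0.26, SE, limma adjusted p = 0.901). Gad2 read 12.80, 13.17 and 12.99 (-0.01 ± 0.20, adjusted p = 0.995) and Slc32a1 17.11, 17.29 and 17.05 (0.07 ± 0.20, adjusted p = 0.962). All these groups overlap. Gphn, at 11.36, 12.27 and 11.55 in En2-/- mice, also overlapped WT (0.11 ± 0.30, adjusted p = 0.962).

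By the probes that stood for the genes, Gabra5 had the largest difference in the cerebellum. It read 9.20, 9.36 and 8.43 in WT and 9.34, 9.86 and 9.50 in En2-/- mice. The groups overlap by a narrow margin (log2 difference 0.57 ± 0.28, SE, limma adjusted p = 0.622), and its other probe gave -0.02. Of the 14 members with several probes tested in the cerebellum, 7 had probes of both signs. Larger differences came from other probes, Gabra2 A_52_P446146 at -0.78 (limma adjusted p = 0.391) and Gphn A_52_P551594 at 0.72 (0.717). Gabra6 and Gabrd differed by 0.04 and -0.09. The Purkinje cell markers, whose summed intensity ranged from 368600 to 457200 in WT and from 288500 to 323400 in En2-/- cerebellum, all had negative differences (8 of 8, 0 called, median -0.44 against -0.03 over all genes). The 7 choroid plexus markers on the array all had positive ones, with sums from 18820 to 22510 in WT and from 24730 to 31600 in En2-/- cerebellum. Their part in the values of the GABA genes was not tested.

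In the hippocampus, Gabra4 was the one member called: it was 2.15-fold higher in En2-/- mice. The alpha subunits went in both directions there, with lower values of Gabra2 and Gabra5 in En2-/- mice that did not pass. By limma 1 of 22 members tested was called (4.55%, against 1.34% of the 14969 genes tested). At an unadjusted p under 0.05 there were 5 (22.7%, against 19.5%): Gabra4 and Gabrb2 higher, and Gabra2, Gabra5 and Gad1 lower. The rank product called 1, Gabra4, at a permutation P under 0.005 (4.55%, against 4.16%). The groups did not overlap for 6 members (27.3%, against 26.4%), these 5 and Gabbr1, which was lower and had 2 WT arrays after an outlier spot was left out. The shares for the unadjusted p, the rank product and the overlap were close to those over all genes. The median difference, En2-/- minus WT, was -0.08 over the members tested and 0.05 over all genes. By quantitative PCR, the study itself reported significant hippocampal changes of Gabra4 and Gabbr1. Its replicates came from pooled RNA, so they do not measure the spread between mice.

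Gabra4 read 12.82, 12.49 and 12.97 in WT and 13.94, 14.02 and 13.63 in En2-/- hippocampus. Each En2-/- array was above every WT array. The log2 difference was 1.10 ± 0.20 (SE) with a 95% confidence interval from 0.65 to 1.56 (limma adjusted p = 0.0445), and the permutation P of the rank product was 0.00218. The call lies near the limit: with the slide as a block the adjusted p was 0.129, and on leaving out each of the 6 hippocampus arrays in turn it ranged from 0.0631 to 0.153, so that the call was lost without any 1 of them. The rank product call was lost without WT array 2 or En2-/- array 1. Within slides 1, 2 and 3 the En2-/- array was higher by 1.12, 1.53 and 0.66. In the cerebellum the same probe gave 12.22, 10.56 and 11.72 in En2-/- mice and 11.06, 11.11 and 12.04 in WT mice, which overlap (log2 difference 0.09, limma adjusted p = 0.980).

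Gabra4 lies on chromosome 5 in a cluster with Gabrg1, Gabra2 and Gabrb1, whose probes start at positions 71962623, 71143181, 71352793 and 72528086 in mm9. These probes lie 43.5, 42.6, 42.9 and 44 Mb from the En2 probe on the same chromosome. The hippocampus differences in this cluster were 1.10 for Gabra4, 0.33 ± 0.20 (SE) for Gabrg1, -0.61 for Gabra2 and -0.16 ± 0.19 (SE) for Gabrb1. Only Gabra4 was called. The confidence intervals of Gabrg1, from -0.14 to 0.80, and of Gabrb1, from -0.59 to 0.27, held both signs. The other Gabra2 probes gave 0.55 and -0.69. Whether neighbouring genes share a direction is therefore not settled, and the part of their position on chromosome 5 was not tested. Gabrd, the subunit that often pairs with alpha-4, read 12.67, 12.44 and 12.94 in WT and 12.94, 12.35 and 12.57 in En2-/- hippocampus, which overlap.

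Marker genes of the thalamus, which borders the hippocampus, moved with genotype in these libraries. Of the 10, 3 were called, against 1.34% of all genes tested (Ramp3 by 1.58, Rgs16 by 1.21 and Synpo2 by 2.39 on the log2 scale). All 10 had positive differences, with a median of 0.90 against 0.05 over all genes. This list was chosen with earlier results of these data known, so its shared direction may follow from that choice. The summed intensity of these markers was 12600, 13830 and 10900 in WT and 29800, 19980 and 29290 in En2-/- hippocampus. All 10 were above background in every group. On the same 3 En2-/- arrays Gabra4 read 13.94, 14.02 and 13.63, and 3 arrays are too few to compare the order of these values. The part of thalamic tissue in the Gabra4 difference was not tested.

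**Figure D3:**
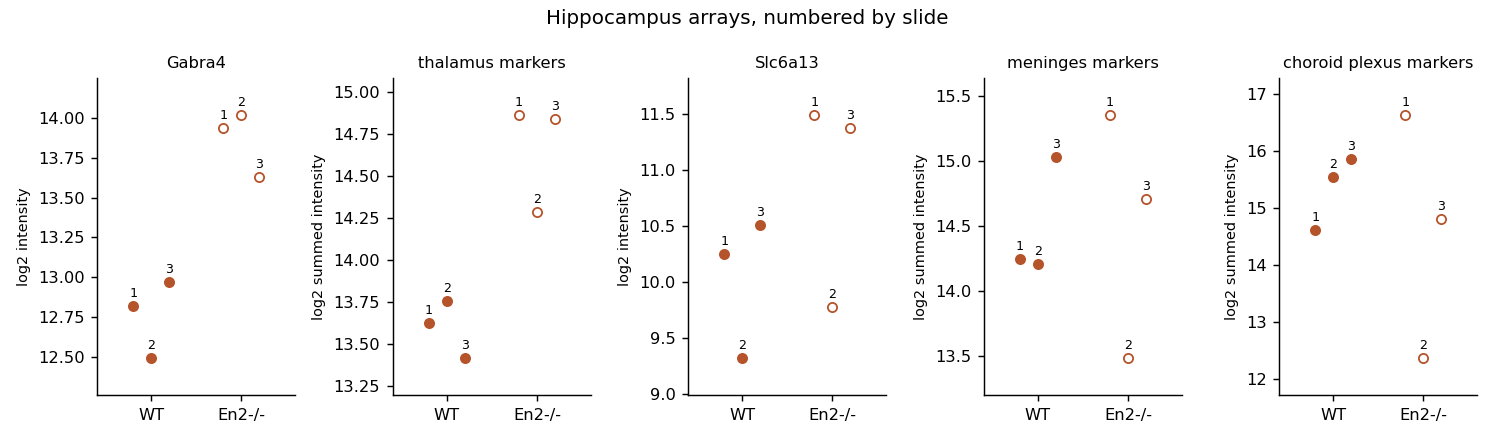
Log2 intensity of member genes and log2 summed intensity of marker lists (y axes) in WT and En2-/- hippocampus, each point an array numbered by its slide. Gabra4 and the thalamus sum are higher on all 3 En2-/- arrays than on any WT array, and 3 arrays are too few to compare their order within a group.

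Gabra5 read 13.22, 13.04 and 13.01 in WT and 12.45, 12.75 and 12.45 in En2-/- hippocampus. These groups did not overlap, but the log2 difference of -0.54 ± 0.17 (SE) did not pass (limma adjusted p = 0.156), and the second probe gave -0.22. Gabra2 read 11.80, 12.01 and 12.55 in WT and 11.75, 11.58 and 11.22 in En2-/- hippocampus (-0.61 ± 0.24, adjusted p = 0.229). Its other 2 probes gave 0.55 and -0.69, so the probes did not share a sign. Of the markers of hippocampal pyramidal and dentate granule neurons, 6 of 8 had negative differences, with a median of -0.35 and 0 called. Their summed intensity ranged from 136800 to 184400 in WT and from 114000 to 133700 in En2-/- hippocampus. Their part in the Gabra5 and Gabra2 values was not tested.

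Gabrb2 read 13.95, 13.51 and 14.03 in WT and 14.21, 14.63 and 14.48 in En2-/- hippocampus. The groups did not overlap by the probe that stood for the gene (0.61 ± 0.21, adjusted p = 0.179), while A_52_P460687 gave -0.05 and A_51_P227679 gave -0.70. Of the 14 members with several probes tested in the hippocampus, 10 had probes of one sign and 4 had both: Gabra2, Gabrb2, Gabarapl1 and Gabarapl2. When every probe was tested on its own, 2 of 41 member probes were called, Gabra4 and 1 of 3 tested probes of Gabbr1. The share over all probes is not given here, so this count does not describe the members as a set. That Gabbr1 probe, A_52_P592639, was lower by 0.98 (limma adjusted p = 0.0405), and its others gave -0.34 and -0.62.

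**Figure D4:**
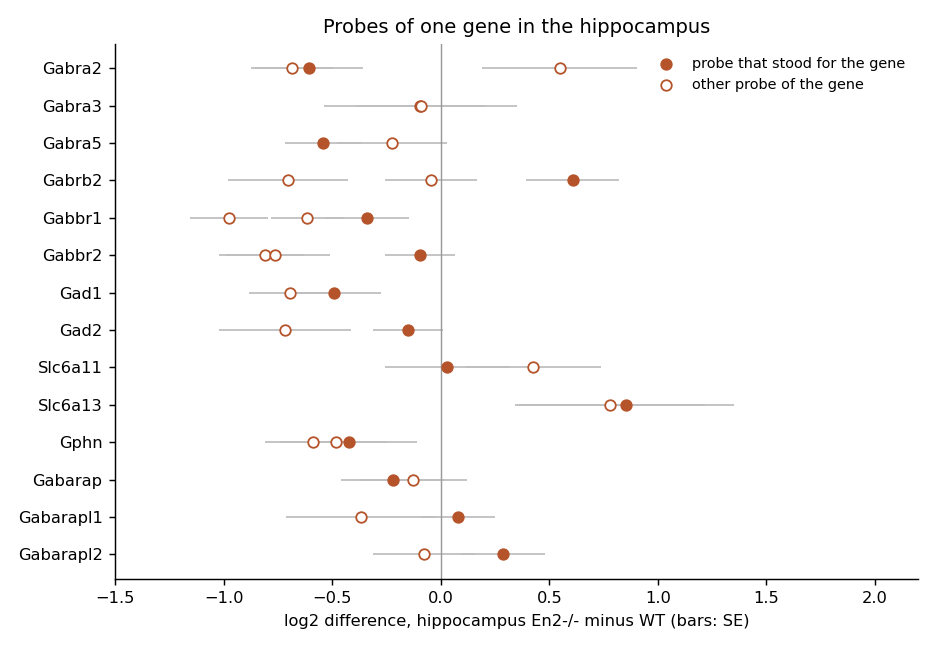
Log2 difference, En2-/- minus WT hippocampus, of each probe (x axis, bars are SE) for members with several tested probes, filled where the probe stood for the gene. Probes of Gabra2 and Gabrb2 fall on both sides of 0, from -0.69 to 0.55 and from -0.70 to 0.61.

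Gad1 read 14.33, 13.91 and 13.85 in WT and 13.25, 13.74 and 13.62 in En2-/- hippocampus. The groups did not overlap, with a log2 difference of -0.49 ± 0.21 (SE, limma adjusted p = 0.249), and its other tested probe gave -0.69. Gad2, at 12.54, 12.63 and 12.72 in WT and 12.41, 12.47 and 12.54 in En2-/- mice, gave -0.15 ± 0.15 (adjusted p = 0.607), and its other probe gave -0.72 in the hippocampus and 0.53 in the cerebellum. Slc32a1, at 15.56, 16.00 and 15.95 in WT and 15.82, 15.66 and 15.95 in En2-/- mice, had overlapping groups, with a difference of -0.02 and a 95% confidence interval from -0.45 to 0.41 (adjusted p = 0.961). Interneuron markers, as a sum, overlapped too, from 92490 to 124600 in WT and from 83650 to 117000 in En2-/- hippocampus. Within that list 4 of 10 genes had negative and 6 had positive differences, and limma called 0. The median was 0.02, against 0.05 over all genes. The rank product called Kit lower (log2 difference -1.27, permutation P = 8.88e-04, limma adjusted p = 0.132), and Npy, which was not called, differed by -0.83 between groups that did not overlap. Both are among the 4 negative genes, and the rank product also called Kit lower in the cerebellum. The part of interneurons in the Gad1 values was not tested.

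Slc6a13, a transporter found in the meninges and choroid plexus as well as the brain, read 10.25, 9.32 and 10.51 in WT and 11.49, 9.77 and 11.37 in En2-/- hippocampus. The groups overlap (log2 difference 0.85 ± 0.49, SE, limma adjusted p = 0.373), and the permutation P of 0.00873 missed the 0.005 limit. Summed meningeal markers were 19450, 18940 and 33490 in WT and 41960, 11430 and 26740 in En2-/- hippocampus. Summed choroid plexus markers were 25180, 48060 and 59930 in WT and 102000, 5261 and 28670 in En2-/- mice. In both the WT and the En2-/- group the Slc6a13 value was lowest on slide 2, and so was the meningeal sum. The WT meningeal sums of slides 1 and 2 were close, at 19450 and 18940. All 7 choroid plexus markers had negative differences (median -0.52, against 0.05 over all genes). Of the 8 meningeal markers, 5 had positive and 3 had negative ones (median 0.265). The part of these tissues in the Slc6a13 values was not tested.

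Gphn read 12.47, 12.48 and 11.82 in WT and 11.20, 12.23 and 12.07 in En2-/- hippocampus, which overlap (log2 difference -0.42 ± 0.31, SE, limma adjusted p = 0.478). Its other 2 tested probes gave -0.48 and -0.59. Gabbr2 gave -0.09 by the probe that stood for it, and its other probes, each tested on its own, gave -0.81 (limma adjusted p = 0.0680) and -0.77. By the probes that stood for them, the remaining members showed differences between -0.34 for Gabbr1 and 0.51 for Gabrg3, none of them called.

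**Figure D5:**
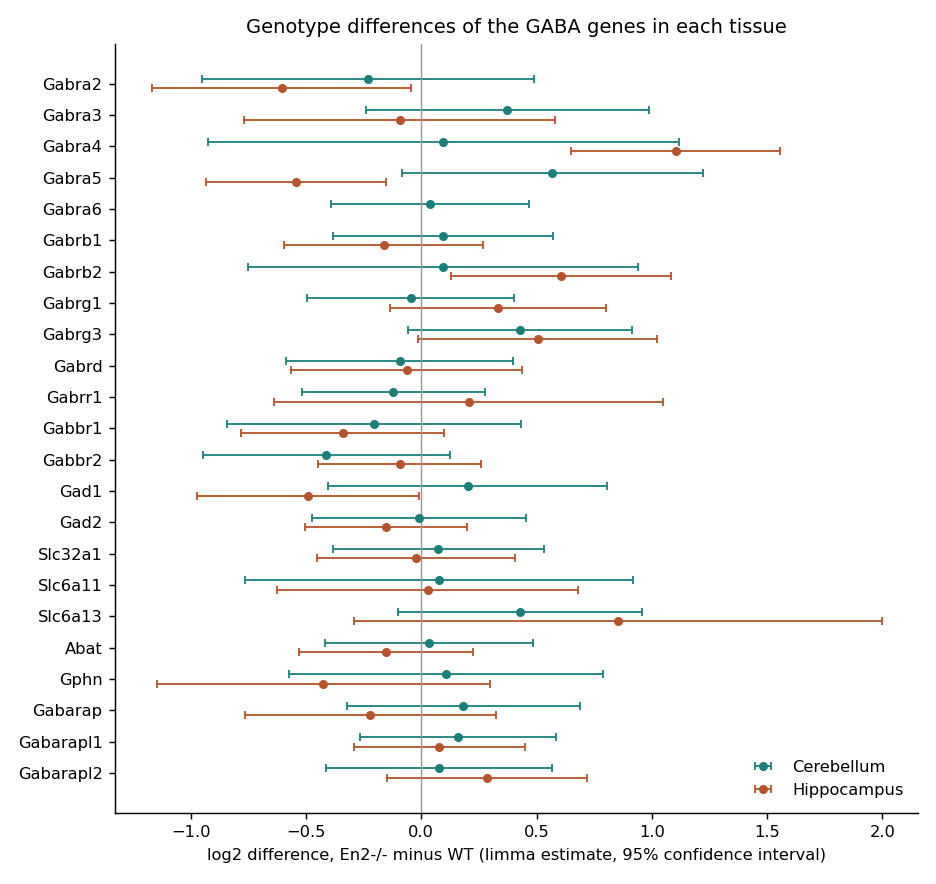
Log2 difference, En2-/- minus WT, of each tested member in the cerebellum and the hippocampus (points, limma estimates; bars, 95% confidence intervals). In the hippocampus the interval of Gabra4 runs from 0.65 to 1.56, while that of Slc32a1 runs from -0.45 to 0.41.

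Whether an effect of genotype differed between the tissues was tested for each gene by an interaction. None of 23 members passed by limma (0.145% of all 15819 genes did), and at an unadjusted p under 0.05 there was 1, Gabra5 (4.35%, against 11.8%). The Gabra5 effect was 1.11 ± 0.34 higher in the cerebellum than in the hippocampus (SE, limma adjusted p = 0.315), where its effects were 0.57 and -0.54. The Gabra4 effect was 1.01 ± 0.54 lower in the cerebellum (adjusted p = 0.468), so that the Gabra4 call in one tissue and not the other is not shown to be a difference between them. The Gad1 effect was 0.69 higher in the cerebellum (adjusted p = 0.451).

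The wider GABA pathway was described by 35 further genes, 34 of them tested. They were organisers of inhibitory synapses, chloride transporters, auxiliary subunits and effectors of GABA-B receptors, and enzymes and carriers of GABA and glutamine. In WT brain 17 of 34 were called (against 32.0% of all genes), 7 higher in the cerebellum (against 17.3%) and 10 higher in the hippocampus (against 14.7%), with a median difference of -0.19 against 0.07 over all genes. Of 13 organisers tested 1 was higher in the cerebellum and 4 in the hippocampus, of 4 chloride transporters 1 and 0, of 7 GABA-B partners 2 and 4, and of 10 metabolic genes 3 and 2.

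The largest pathway differences toward the hippocampus were of Shisa7, a GABA-A receptor auxiliary protein (log2 difference -4.00, limma adjusted p = 2.19e-08), and Kctd16, an auxiliary subunit of GABA-B receptors (-3.83, adjusted p = 5.33e-07). Shisa7 read 8.50, 8.12 and 7.93 in WT cerebellum and 12.39, 12.24 and 11.91 in WT hippocampus, which lie apart. Toward the cerebellum they were of Kctd8, another auxiliary subunit of GABA-B receptors (1.86, adjusted p = 8.22e-04), the betaine and GABA transporter Slc6a12 (1.51, adjusted p = 0.0341) and the glutamine carrier Slc38a1 (1.42, adjusted p = 1.50e-05). With genotype, limma called 0 of 34 in the cerebellum and 0 of 34 in the hippocampus, against 0.660% and 1.34% of all genes. The rank product called 0 in the cerebellum (against 5.01%) and 1 in the hippocampus (against 4.16%), the mitochondrial glutamate carrier Slc25a22. It was lower in En2-/- mice, at 11.88, 11.71 and 11.43 against 13.11, 12.25 and 12.56 in WT (log2 difference -0.97 ± 0.25, SE, permutation P = 0.00394, limma adjusted p = 0.115). Of the 34, 21 had negative differences in the hippocampus (median -0.18, against 0.05 over all genes) and 19 in the cerebellum (-0.03, against -0.03). Hippocampal Nlgn2, reported as changed by the study's quantitative PCR on pooled RNA, was lower by 0.85 and did not pass (limma adjusted p = 0.0804, permutation P = 0.00742).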

How the data were processed

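The deposited scanner files held, for each of 12 1-colour Agilent arrays, spot intensities that the authors extracted with Feature Extraction 10.7.3.1, background-subtracted per the file headers. A second deposited table held log2 values that the authors normalised to quantiles separately for each tissue, so it was used for genotype comparisons alone, as an alternative. The flags for outlier spots and for signals well above background, per the file headers, are yes or no values of the deposited files.

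Processed intensities were put on the log2 scale and normalised to common quantiles over the 12 arrays. Control and outlier spots were left out, spots of a probe were averaged, and the probe with the highest mean stood for its gene. limma 3.58.1 in R 4.3.3 was fitted across all genes tested, within a tissue for genotype and over all 12 arrays for region and interaction, with Benjamini-Hochberg adjustment over all genes. The rank product followed the study's methods, with 9 ratios of arrays, 100 permutations and limits of 0.01 in the cerebellum and 0.005 in the hippocampus. These steps were tested on simulated data. Python 3.11.15 was used for tables and figures. P-values measure the spread between 3 mice a group, and the number of arrays limits their precision.

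All members are accounted for. Values on every array are given for members called with genotype, for those called and at least 2-fold different between WT regions, for Gad1, Gad2, Slc32a1 and Gphn, and, outside that rule and chosen after their values were seen, for Gabrg3, Gabra5, Gabra2, Gabrb2, Slc6a13 and Gabrd with genotype and for Shisa7 and Slc25a22. Pathway genes were named where called with genotype and for the 3 largest regional differences in each direction, of which 1 is not reported here. The pathway gene Nlgn2 and the markers Neurod2, Kit and Npy were named after their values were seen. The members and lists were chosen with earlier results of these data known. Of the listed genes, Insyn2a and Kcnj13 were not analysed here.

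The replicate number is the slide of the file headers. Deviations from the group means of same-numbered WT and En2-/- arrays correlated at -0.05, 0.11 and 0.01 in the cerebellum and at -0.17, 0.09 and -0.06 in the hippocampus, so the fits have no block, and the block is an alternative. Those of the cerebellum and hippocampus arrays correlated at 0.26, -0.19 and 0.08 in WT and at 0.14, 0.12 and -0.05 in En2-/- mice. Both tissues of a number may come from 1 mouse, which the labels do not state, and the region and interaction fits treat them as independent. Others were scaling to the 75th percentile, normexp and local background with an offset of 50, quantiles within a tissue, other filters, the mean of a gene's probes, each probe alone, other sets of arrays and leaving out each array.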

Additional observations from a re-analysis of the deposited data

How the results depend on the processing

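No member was called in the cerebellum under any of 17 alternatives for limma and 15 for the rank product, nor for the interaction under 21. Between WT regions 9 to 14 members were called under 21 alternatives, and 6 to 11 with at least a 2-fold difference. With the slide as a replicate block there were 12, adding Slc6a13. The regional fit was not run on the authors' values, which were normalised within each tissue.

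In the hippocampus the 1 limma call, Gabra4, became 0 with normexp, with local background, with the authors' values, without a filter on dim probes, with the slide as a replicate block and with all 12 arrays in the fit, and it was 0 to 0 on leaving out each array. It became 2 with every probe tested alone, which added Gabbr1. Over 17 alternatives the Gabra4 difference stayed between 0.97 and 1.29, with adjusted p from 0.0231 to 0.200. The rank product called 2 members with normexp, 2 with local background, 3 with the authors' values, 0 without a filter, 0 at a percentage of false prediction under 0.05 and 2 at P under 0.01, and 0 to 1 on leaving out each array. The added members were Slc6a13 and, with the authors' values, Gabbr2. The replicate block changed no other call with genotype. The causes were not tested.

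Members near 0 that did not pass changed sign. In the cerebellum, Gad1 gave -0.33 as the mean of its probes and -0.013 to 0.37 on leaving out each array. Gad2 gave 0.043 with normexp, 0.043 with local background, 0.034 with the authors' values, 0.26 as the mean of its probes and -0.11 to 0.098 on leaving out each array. Slc32a1 gave -0.0022 at the 75th percentile and -0.043 to 0.19 on leaving out each array, and Gphn -0.16 to 0.30. In the hippocampus, Slc32a1 gave 0.27 at the 75th percentile and -0.16 to 0.059 on leaving out each array. Between regions, Gad1 gave 0.066 at the 75th percentile, 0.036 with normexp, 0.036 with local background, 0.37 as the mean of its probes and -0.17 to 0.20 on leaving out each array.

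Scaling to the 75th percentile moved the median of all genes from -0.09 to -0.21 for the interaction. For Gabre, Gabrp, Gabrq, Gabrr2 and hippocampal Gabra6 the signal over background gave no measured difference with genotype.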
